A study of Mus musculus with 3 samples.

Results

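The tubulin genes, the tubulin tyrosine ligase like (Ttll) genes and the Agbl carboxypeptidase genes were described in single cells of early mouse embryos, with attention to the left-right organizer (LRO), the ciliated pit that sets the left-right axis. Members were all features whose symbol begins with Tuba, Tubb, Tubg, Tubd, Tube, Ttll or Agbl followed by a digit. That gave 37 of 31054 features, namely 19 tubulins, 13 Ttll genes and 5 Agbl genes. LRO cells were the 263 of 21595 kept cells with a UMI of at least 4 of the 6 genes Foxj1, Noto, Pifo, Fam183b, Cfap126 and 1110017D15Rik. No member was used to choose them.

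Microtubules are built from dimers of alpha- and beta-tubulin, and each kind is encoded by several isotype genes. Enzymes of the Ttll family add chains of glutamate or glycine to the tubulin tails, and Agbl enzymes, also called cytosolic carboxypeptidases, trim glutamates from them. Both kinds of chain are abundant on the axonemes of motile cilia, and LRO cells carry such cilia.

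The 3 embryos were wild type (WT), of mixed C57BL/6 and 129 SvEv strain, and were taken at E8 with 0 to 2 somites by one label and 0 to 1 by another. Every embryo was dissociated by itself and gave 1 droplet library counted from transcript 3′ ends, so the embryo is the replicate, and no other genotype or treatment is compared here. The libraries held 6579 to 8621 barcodes, 5795 to 7956 kept cells and a median of 14615 to 27635 UMIs per kept cell, and pairs of them shared 10 to 18 kept barcodes. The cells came without type labels in the files used here, so 14 further lineages were set by marker UMIs as the LRO was. Extraembryonic tissue was removed according to the protocol, yet 2439 kept cells (11.3%) passed the extraembryonic endoderm gate.

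The LRO label was checked on genes outside the gate. T, a notochord and primitive streak factor, had a UMI in 99.1% ± 1.5 (SD, n = 3) of LRO cells, Foxa2 in 78.4% ± 5.26 and Shh in 74.8% ± 4.67. These genes were also frequent in axial mesoderm cells (96.2%, 83.5% and 100%), which were chosen in part by them, since all 3 are in the axial mesoderm list. Nodal, Dand5 and Dnah11, an axonemal dynein, had a UMI in 43.9% ± 16.0, 51.1% ± 9.93 and 51.0% ± 11.6 of LRO cells and in 4.44%, 8.76% and 0% of axial mesoderm cells. Many of these cells also carried markers of other lineages. Leaving axial mesoderm aside, whose list 205 of the 263 passed, 180 had at least 4 of 6 markers of another list, most often caudal epiblast (111 cells), neural plate (71) and paraxial mesoderm (60), and 16 were among the highest doublet scores. Levels are given as CPM, the UMIs of a gene summed over the cells of a class in 1 embryo and scaled to 1000000 UMIs. The 6 LRO genes summed to 869.9 ± 205 CPM in the 180 cells and to 3789 ± 1513 in the other 83. Results for LRO cells are therefore also given for the 83 cells alone, a choice made after seeing the data. The 83 cells were shallower, with a median of 9568 UMIs against 35528.5 in the 180, and 40 of them had cycling genes (defined below) against 172 of the 180. They were not free of other markers, since the caudal epiblast list, which includes T, summed to 2067 ± 530.5 CPM in them, 886 ± 142 in the 180 and 964 ± 133 in caudal epiblast cells. The part of depth, cycling genes and mixed markers in each result was not tested.

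Promoter sequence is shown for 4 members with large differences between LRO and other cells, so that the motif described below can be read in place. The 4 were picked by name and not by rank. The letters searched were GTTGCC, a half-site of the RFX factors that act in ciliated cells, and its reverse complement GGCAAC, in the 250 bases before each RefSeq start (GRCm38.p6). Capitals mark the motif and all 4 stretches are on the plus strand.
Ttll9, chr2:152962235-152962484: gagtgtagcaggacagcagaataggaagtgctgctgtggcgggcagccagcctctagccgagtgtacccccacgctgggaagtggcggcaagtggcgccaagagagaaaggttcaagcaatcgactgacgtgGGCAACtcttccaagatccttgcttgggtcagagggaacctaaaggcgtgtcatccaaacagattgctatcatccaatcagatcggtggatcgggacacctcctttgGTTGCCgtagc
Agbl2, chr2:90782477-90782726: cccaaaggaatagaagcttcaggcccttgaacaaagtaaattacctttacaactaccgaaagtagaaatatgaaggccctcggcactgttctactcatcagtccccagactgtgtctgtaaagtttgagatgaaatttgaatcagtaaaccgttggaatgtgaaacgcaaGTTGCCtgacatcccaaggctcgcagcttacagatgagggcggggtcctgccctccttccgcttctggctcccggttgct
Ttll3, chr6:113392386-113392415: tgattgtgcctgGGCAACagtctcctagga
Ttll6, chr11:96133536-96133785: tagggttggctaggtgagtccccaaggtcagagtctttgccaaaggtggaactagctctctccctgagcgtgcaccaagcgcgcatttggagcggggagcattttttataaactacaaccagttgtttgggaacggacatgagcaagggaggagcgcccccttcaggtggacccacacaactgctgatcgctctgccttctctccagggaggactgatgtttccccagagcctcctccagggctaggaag

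In Ttll9 the motif stood at -118 and -11 from the start, and in Agbl2 at -80 from one start, with none before its other start. The Ttll3 stretch surrounds a match at -65 from 1 of its 2 starts, and the window before its other start held none. The window with the match lies within the annotated gene and also holds exon sequence of Ttll3, so 30 bases of it are printed. The Ttll6 window held no match. Agbl4, whose difference in the first comparison below was second to that of Ttll6, is not shown, and its window held no match either. Of 27025 genes with a window, 3195 held the motif (11.8%). A window was given for 32 of the 37 members. The motif was in 6 of the 10 that were higher in LRO cells in the first comparison below (Agbl2, Agbl3, Ttll3, Ttll5, Ttll9 and Ttll10) and in 3 of the 22 others (Tuba1c, Tuba8 and Ttll8). GTAAACA, a forkhead site, or its reverse complement TGTTTAC was in 1 of those 10 and 2 of those 22, against 3.54% of all genes. A match describes letters and is not a measured binding site.

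The first comparison asked which members differ between LRO cells and all other kept cells. Ttll3, Ttll6, Ttll9, Ttll10, Agbl2 and Agbl4 were higher in LRO cells by log2 changes from 4.35 to 9.33. Other Ttll and Agbl genes changed less or were not called. Tuba1a was the abundant isotype that was higher, and the most abundant beta isotypes were not called in the main fit. Tubb5 and Tuba1b were called lower with the embryo as a block and with the 83 cells alone. Of the 37 members 31 passed the filter on low counts, 12 were higher in LRO cells and 2 were lower (edgeR, adjusted p under 0.05). Over all 15823 genes tested, 11.2% were higher and 6.48% lower. By class, 7 of 11 tested Ttll genes and 3 of 4 tested Agbl genes were higher, as were 2 of 16 tested tubulins, and both members that were lower were tubulins. These counts lean towards higher calls, because the filter keeps a gene with enough counts in the sums of either group. Members rare in other cells, such as Ttll6 and Agbl4, could thus enter through LRO cells alone, and members rare in both groups could not enter. The same filter applied to all genes and to the later comparisons. With the 83 cells alone, 14 members were higher and 5 lower, against 12.6% and 10.3% of all genes. With the embryo as a block, 13 were higher and 5 lower, against 14.7% and 15.7%.

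Among the glycylases, which add glycine, Ttll3 stood at 59.2, 52.7 and 30.4 CPM in LRO cells of replicates 1, 2 and 3 and at 2.02, 1.41 and 1.80 in all other cells. Every LRO value was above every other value. The log2 fold change was 4.66 (SE 0.24, adjusted p = 4.69e-07) with all LRO cells and 6.28 (SE 0.28) with the 83. Ttll3 is a protein-coding gene at chr6:113389260-113414587 on the plus strand (GRCm38), where it overlaps Arpc4, an abundant gene of the same strand with 41878 UMIs in kept cells, so a few of its reads could belong to that gene. Ttll10 rested on 17 UMIs in LRO cells and stood at 2.61, 1.13 and 2.36 CPM against 0.0634, 0.154 and 0.0802. The groups did not overlap and the log2 fold change was 4.35 (SE 0.60, adjusted p = 6.26e-04). Ttll8, the third glycylase, had 6 UMIs in LRO cells and a log2 fold change of 2.18 (SE 0.72, adjusted p = 0.064). With the 83 cells alone it passed (4.05, adjusted p = 0.0239), but on 3 UMIs, at 7.26, 2.90 and 0 CPM.

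Of the glutamylases, Ttll6, which extends glutamate chains in cilia, was nearly absent outside the LRO. The gene lies at chr11:96133786-96165451 on the plus strand. It had 89 UMIs in the 263 LRO cells and 8 in the 21332 others. Its levels were 14.2, 15.9 and 6.78 CPM in LRO cells against 0.0211, 0.00699 and 0.0185, with no overlap and a log2 fold change of 9.33 (SE 0.51, adjusted p = 6.61e-07). With the 83 cells the change was 10.79 (SE 0.48). Ttll9 stood at 13.8, 11.9 and 9.73 against 0.529, 0.322 and 0.426, again without overlap, and changed by 4.70 (SE 0.30, adjusted p = 2.32e-06).

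The other glutamylases changed less or were rarer. Ttll7, which glutamylates beta-tubulin, was at 8.19, 9.63 and 9.43 CPM against 2.94, 2.24 and 2.54, a log2 fold change of 1.74 (SE 0.23, adjusted p = 4.76e-04). Ttll11 was higher by 3.78 (SE 0.55, adjusted p = 9.49e-04) on 12 UMIs in LRO cells. Ttll5 was higher by 0.76 (SE 0.15, adjusted p = 0.00671), a call lost without replicate 2 (0.76, adjusted p = 0.0555) or replicate 3 (0.78, adjusted p = 0.0813). Ttll1, the catalytic subunit of the tubulin polyglutamylase complex, was at 14.5, 7.93 and 8.84 against 7.79, 8.78 and 8.54 and was not called (0.25, SE 0.22, adjusted p = 0.483), while with the 83 cells it passed (1.29, adjusted p = 0.0157). Ttll4 was not called either (0.16, SE 0.16, adjusted p = 0.535). Ttll12, a divergent family member, was at 25.0, 27.7 and 19.5 against 29.8, 27.4 and 26.3 (-0.32, adjusted p = 0.131), and was called lower with the embryo as a block (adjusted p = 0.0459) and with the 83 cells (-0.97, adjusted p = 0.048).

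The deglutamylases that differed were Agbl2, Agbl3 and Agbl4. Agbl2 was at 10.1, 6.79 and 4.42 CPM in LRO cells against 0.122, 0.105 and 0.123, a log2 fold change of 5.80 (SE 0.40, adjusted p = 3.67e-06). Agbl4 was at 4.84, 3.96 and 3.54 against 0.037, 0.028 and 0.0555, on 32 and 20 UMIs, and changed by 6.53 (SE 0.45, adjusted p = 3.62e-06). Bend5, a gene of the same strand with 8845 UMIs, lies within it. Agbl3 was at 5.21, 5.66 and 3.24 against 0.856, 0.930 and 0.968 (2.23, SE 0.32, adjusted p = 8.36e-04). For all 3 the lowest LRO embryo lay above the highest value of the other cells. Agbl5, which removes the branching glutamate, was at 3.35, 3.96 and 2.95 against 3.06, 2.40 and 2.42 and was not called (0.27, SE 0.28, adjusted p = 0.601).

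**Figure D1:**
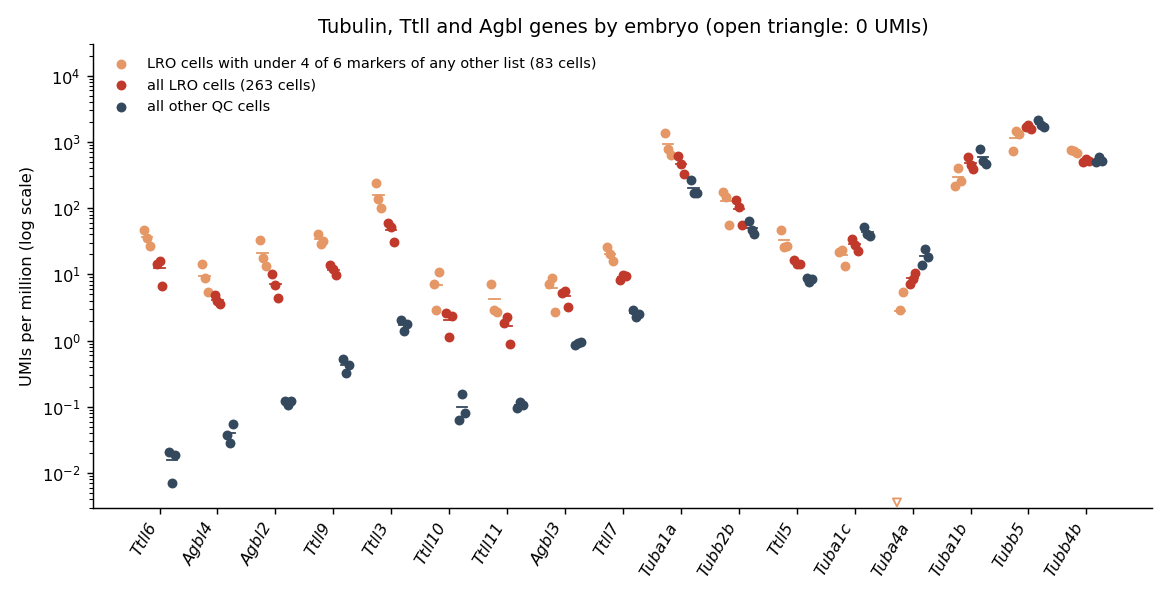
CPM (log axis) of 17 members in each of the 3 embryos, for the 83 LRO cells with under 4 of 6 markers of any other list (axial mesoderm aside), for all LRO cells and for all other kept cells. Points are embryos, short lines are means and an open triangle marks 0 UMIs. The points of Ttll3 lie between 30.4 and 59.2 in all LRO cells and between 1.41 and 2.02 in the other cells, while those of Tubb4b overlap between all LRO cells and the other cells.

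The alpha-tubulins moved in both directions. Tuba1a, at chr15:98949837-98953703 on the minus strand, was at 602, 465 and 327 CPM in LRO cells against 265, 168 and 171, with no overlap and a log2 fold change of 1.12 (SE 0.21, adjusted p = 0.00485). The call was lost without replicate 2 (1.02, adjusted p = 0.0979), and with the 83 cells the change was 2.00 (SE 0.27, adjusted p = 2.62e-04). Tuba1c was lower, at 34.6, 27.7 and 22.7 against 51.5, 40.8 and 37.3 (-0.70, SE 0.16, adjusted p = 0.0147), and Tuba4a at 7.08, 8.49 and 10.6 against 13.9, 24.4 and 18.1 (-1.17, SE 0.28, adjusted p = 0.0171). Without replicate 2 neither passed (adjusted p = 0.126 for Tuba1c and 0.123 for Tuba4a), nor without replicate 3 (0.0609 and 0.0542). Tuba1b was not called (-0.40, SE 0.19, adjusted p = 0.177), but was lower with the embryo as a block (adjusted p = 3.34e-06) and with the 83 cells (-1.18, adjusted p = 0.0072). The last 500 bases of Tuba1a share 46.7% of their 90-base words with Tuba1b, and those of Tuba1c share 65.0% with Tuba1a, so reads from these ends could be split between the genes or dropped.

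Among the beta-tubulins only Tubb2b was called, at 131, 104 and 54.8 against 62.8, 46.4 and 40.8 (0.85, SE 0.25, adjusted p = 0.0434). Its groups overlapped, and the call was lost without replicate 1 (0.74, adjusted p = 0.0513) or replicate 2 (0.75, adjusted p = 0.282). Tubb5, the most abundant member, was at 1692, 1816 and 1582 against 2139.9, 1823 and 1685 (-0.23, SE 0.09, adjusted p = 0.123). It was called lower with the embryo as a block (adjusted p = 0.00738) and with the 83 cells (-0.87, adjusted p = 0.0253). Tubb4b was at 502, 552 and 522 against 500.4, 588 and 510.4 (-0.10, SE 0.10, adjusted p = 0.526). In the 83 cells it was at 755, 735 and 669, above every value of the other cells, and the change turned to 0.24 (SE 0.15, adjusted p = 0.284), which was not called. Tubb4a was called higher with the block alone (0.45, adjusted p = 0.0183). Tubb2a, Tubb3 and Tubb6 had log2 fold changes of 0.17, -0.34 and -0.02 and were not called.

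The tubulins of centrosomes and centrioles were not called. Tubg1, which nucleates microtubules, was at 52.9, 51.0 and 45.4 CPM in LRO cells against 52.9, 50.5 and 47.0 (-0.10, SE 0.10). Tube1 and Tubd1, needed for the triplet microtubules of centrioles, changed by 0.06 (SE 0.23) and -0.21 (SE 0.56). Tubg2 and Tuba8 were tested on 3 and 2 UMIs in LRO cells. The 6 members below the filter had 79 (Tuba3a), 65 (Ttll13), 23 (Tubb1), 8 (Ttll2), 6 (Tuba3b) and 4 (Agbl1) UMIs in all kept cells, and 17 of the 23 of Tubb1 were in erythroid cells.

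**Figure D2:**
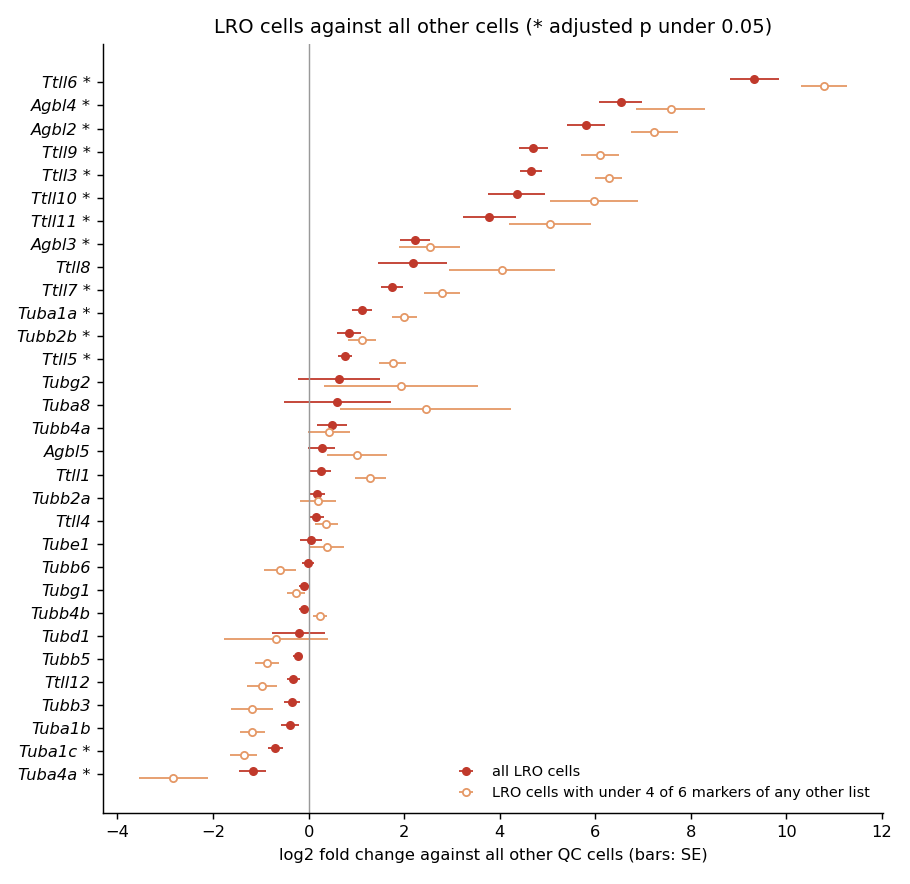
Log2 fold change of the 31 tested members in LRO cells against all other kept cells, with all LRO cells (filled) and with the 83 that had under 4 of 6 markers of any other list, axial mesoderm aside (open). Bars are standard errors and asterisks mark an adjusted p under 0.05 with all LRO cells. Values run from 9.33 for Ttll6 to -1.17 for Tuba4a.

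Across lineages, 7 members had a lowest LRO embryo above every embryo of all 14 other lineages: Ttll3, Ttll6, Ttll7, Ttll9, Ttll10, Agbl2 and Agbl4. This order was not counted over all genes, so the number is not read as a result about the members. Against axial mesoderm, with 19, 33 and 15 cells, this order rests on few UMIs for rare members. Their lowest LRO embryo was at 1.13 CPM for Ttll10, 3.54 for Agbl4 and 4.42 for Agbl2. In axial mesoderm 1 UMI was 2.22, 2.37 and 5.78 CPM in replicates 1, 2 and 3. It exceeds the value of Ttll10 in every replicate, and those of Agbl4 and Agbl2 in replicate 3. Germ cells, with 12 and 23 cells in replicates 1 and 3, are also few. No Agbl gene could be tested against axial mesoderm, and of these 7 members only Ttll3 and Ttll9 were called against it (below). The next lineage by mean was definitive endoderm for Ttll3 (3.1 ± 1.21 CPM, against 47.4 ± 15.1 in the LRO), presomitic mesoderm for Ttll9 (1.65 ± 1.12 against 11.8 ± 2.03) and axial mesoderm for Ttll7 (4.99 ± 0.701 against 9.08 ± 0.777). The axial mesoderm values of Ttll7 also rest on few UMIs, since the highest, 5.78 CPM, was 1 UMI in replicate 3. Tuba1a was also highest in the LRO by mean (464 ± 138) but overlapped mesenchyme (344 ± 53.6), axial mesoderm (304 ± 91.4) and neural plate (271 ± 71.4). Tuba1c had its lowest mean in the LRO among the 15 lineages, where it overlapped axial mesoderm.

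Detection per cell was read for Ttll3, Ttll6 and Tuba1a. A Ttll3 UMI was found in 60.1% of LRO cells (158 of 263), 4.09% of neural plate cells and 1.65% of erythroid cells, which should lack cilia genes. Median depths were 25916 UMIs in LRO, 23629 in neural plate and 15363 in erythroid cells. After each cell was thinned to 5000 UMIs, which left out 11 LRO cells, 1 neural plate cell and 1 erythroid cell, the shares were 26.2%, 1.02% and 0.552%. Ttll6 was in 25.1% of LRO cells (9.92% thinned) and in 0 of 1088 erythroid cells, which allows a share of cells with a UMI of up to 0.276% and sets no limit on cells that express it. Tuba1a was in 99.2% of LRO cells (90.5% thinned) and 28.6% of erythroid cells (10.7% thinned).

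Members also varied with how many of the 6 LRO genes a cell had. Ttll3 averaged 1.74 CPM in cells with none, 4.92 with 3, 13.6 with 4, 31.8 with 5 and 65.3 with all 6. Ttll6 averaged 0.0156 with none, 1.01 with 4, 8.52 with 5 and 18.1 with all 6. Tuba1a averaged 198, 330.4, 449 and 523 at the same steps, while Tuba1b averaged 589.6, 539, 470.4 and 451. Just outside the gate, in 47 cells with 3 genes, Ttll3 was at 2.99, 6.39 and 5.37, and just inside it, in 46 cells with 4, at 9.5, 21.3 and 10.0. These steps use the genes of the gate and are given without a test.

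**Figure D3:**
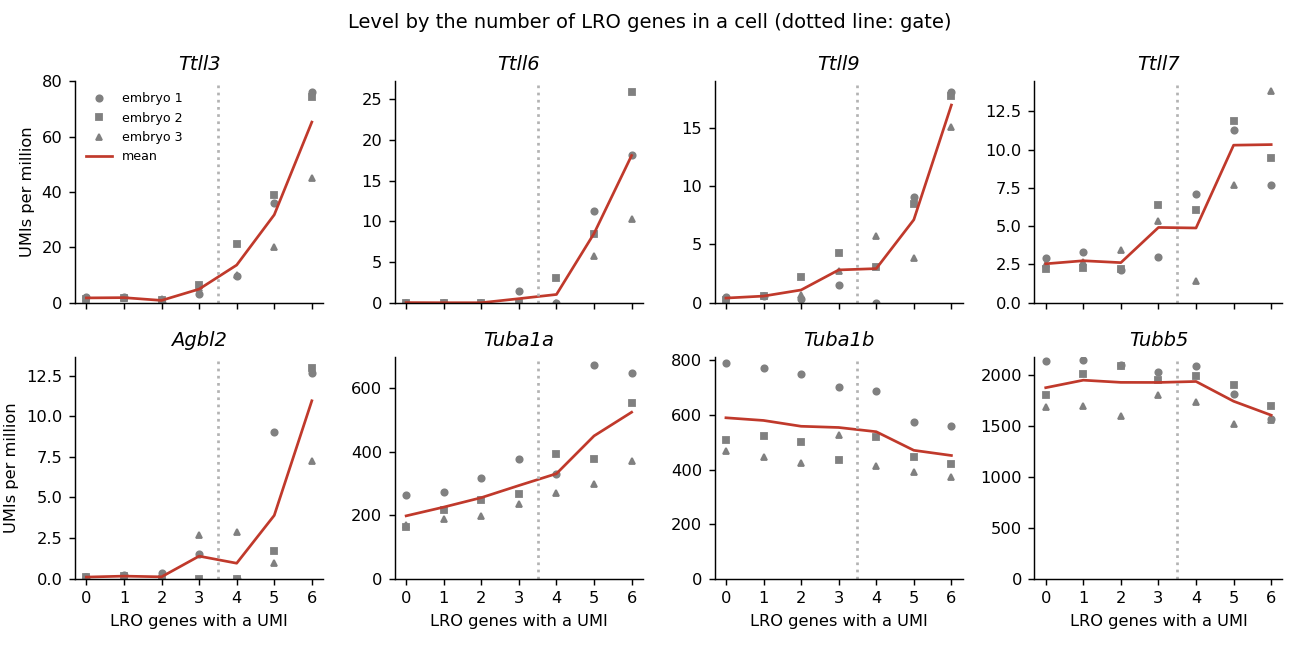
CPM of 8 members (linear axes) against the number of LRO genes with a UMI in a cell, with a symbol per embryo and a line for the mean; the dotted line is the gate. Ttll3 goes from a mean of 1.74 at 0 genes to 65.3 at 6, and Tubb5 from 1876 to 1606.

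Isotype use was read as the share of alpha- or beta-tubulin UMIs, since a molecule is counted once at its 3′ end whatever its length. In LRO cells Tuba1a made up 49.1%, 49.0% and 43.7% of alpha-tubulin UMIs, and Tuba1b 47.5%, 47.1% and 51.7%. The highest share of Tuba1a in an embryo of any other lineage was 37.6%, in mesenchyme, so the LRO did not overlap the other lineages. Means elsewhere were 34.9% ± 3.16 in mesenchyme, 30.7% ± 2.20 in axial mesoderm, 28.9% ± 0.522 in neural plate and 5.41% ± 0.333 in extraembryonic endoderm. With the 83 cells alone the LRO share was 85.0%, 64.7% and 69.2%. The summed level of alpha- and beta-tubulin was 3634, 3499 and 2976 CPM in LRO cells and 3898, 3267 and 2994 in all kept cells, which overlap.

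Tubb5 was the main beta isotype in LRO cells. It made up 70.8% ± 0.503 of beta-tubulin UMIs in LRO cells and 74.1% ± 2.39 in all kept cells, and Tubb4b 22% ± 1.32 and 21.2% ± 2.79. With the 83 cells alone the shares were 42.9%, 60.3% and 62.0% for Tubb5 and 44.3%, 30.4% and 32.0% for Tubb4b, so every embryo was below 70.8% for the first and above 22% for the second. Among the 15 lineages, Tubb4b took its largest mean shares in extraembryonic endoderm (40.4% ± 1.54) and erythroid cells (35.6% ± 0.270, n = 2).

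**Figure D4:**
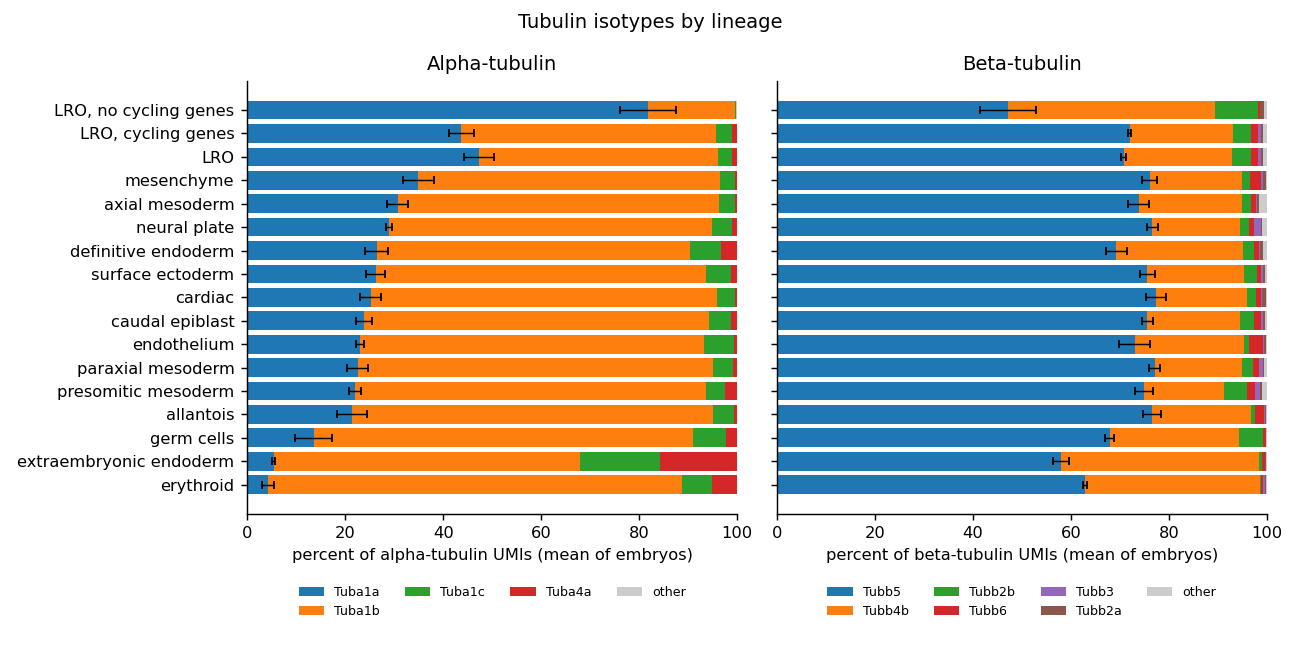
Mean percent of alpha-tubulin (left) and beta-tubulin (right) UMIs taken by each isotype in 15 lineages and in LRO cells with and without cycling genes; error bars are the SD over embryos for Tuba1a and Tubb5. Tuba1a takes 47.3% in the LRO, 81.8% in LRO cells without cycling genes and 4.24% in erythroid cells.

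Axial mesoderm cells, which express notochord genes but at most 1 LRO gene, are the nearest lineage, with 67 cells. Of 18 members tested, 2 were higher in LRO cells and 0 were lower, against 5.19% and 3.05% of 8424 genes (8.24% in either direction). An unadjusted p under 0.05 was found for 6 of the 18 members and for 1683 of the 8424 genes. Ttll3 was at 4.44, 0 and 0 CPM in axial mesoderm, on 2 UMIs, a ratio of 23.6 (95% counting interval 6.50 to 196, log2 fold change 4.53, SE 0.68, adjusted p = 4.31e-04). Ttll9 had no UMI in axial mesoderm and was at least 4.04-fold higher in LRO cells, with the floor of 3 UMIs over the group (adjusted p = 0.00682). That call was lost without replicate 1 (adjusted p = 0.0586) or replicate 2 (0.0708). Tuba1a was at 404, 282 and 225 in axial mesoderm and was not called (0.54, SE 0.21, adjusted p = 0.145). With the embryo as a block, 4 members were higher and 1 lower, where 551 and 336 of 8424 genes were. The added members were Tuba1a (adjusted p = 3.45e-04), Tubb2b (0.00267) and, lower, Tuba1b (0.00165). With the 83 cells only 9 members could be tested. Of these, 4 were higher and 2 lower, against 11.7% and 3.63% of all genes, and Tuba1a was higher by 1.57 (adjusted p = 6.17e-04).

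Neural plate cells are many and of like depth. Of 27 members tested, 12 were higher in LRO cells and 3 lower, against 18.0% and 12.5% of 12658 genes. Ttll3 was at 1.64, 1.26 and 1.58 CPM in neural plate, and the log2 fold change was 4.80 (SE 0.24, adjusted p = 1.90e-08). Agbl2, Ttll9, Agbl3 and Ttll7 were higher by 5.88, 3.94, 2.53 and 1.52. Ttll6, Agbl4 and Ttll10 had 2, 1 and 1 UMIs in neural plate, with ratios of 397 (107 to 3332), 286 (47.7 to 11636) and 152 (23.8 to 6345). Tubb3, the neuronal beta isotype, was lower in LRO cells, at 12.7, 14.2 and 13.6 against 43.1, 43.4 and 35.8 (-1.72, SE 0.15, adjusted p = 2.08e-06).

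The remaining calls against neural plate were small. Tuba1a, Tubb2b, Tubb2a and Ttll5 were higher by 0.64, 0.76, 0.57 and 0.53, and Tuba1b and Tubb5 lower by log2 changes of -0.52 and -0.44. Each of the 6 was lost on leaving out an embryo. Without replicate 2 the adjusted p was 0.182 for Tuba1a, 0.152 for Tuba1b, 0.116 for Tubb2b, 0.102 for Tubb5, 0.0975 for Tubb2a and 0.0847 for Ttll5. Without replicate 1 it was 0.177 for Ttll5, 0.148 for Tubb2a, 0.116 for Tubb2b and 0.0709 for Tubb5, and without replicate 3 it was 0.155 for Tubb2a, 0.0814 for Ttll5 and 0.0536 for Tuba1b. With the embryo as a block, Tubg1 (adjusted p = 0.0235), Tuba1c (4.07e-04) and Tubb4a (0.00129) were also lower, making 6. Of all genes, 21.7% were then higher and 19.9% lower. With the 83 cells, 10 of 25 tested members were higher and 5 lower, against 17.2% and 14.7% of all genes.

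LRO cells were next divided by cycling genes. Cells with a UMI of at least 2 of Mki67, Top2a, Cdk1, Cenpf, Ccnb1 and Birc5 numbered 212 and the others 51. In the cells without cycling genes, Tuba1a rather than Tuba1b was the main alpha isotype, and Ttll3, Ttll6 and Ttll9 were higher. Of 20 members tested, 5 were higher and 8 lower in cells with cycling genes, against 15.4% and 16.0% of 8194 genes. After thinning to 5000 UMIs, Ttll3, Ttll6 and Tuba1a were still called lower and Tuba1b and Tubb5 higher, Tubb4b was lost (-0.40, adjusted p = 0.113), and the other 7 called members could not be tested. A further setting placed the cycling gate after thinning, at a UMI of any gene of the cycling list, and summed the unthinned counts. It is thus a looser gate at full depth. With it, Tubb4b (adjusted p = 0.191), Agbl2 (0.0801), Ttll1 (0.252) and Tubb6 (0.0673) were lost. The groups differ in depth, with median UMIs of 37604, 23669.5 and 30654 per cell with cycling genes and 12326, 5933.5 and 7877 without. They also differ in markers. The LRO genes summed to 983 ± 225 and 5073 ± 271 CPM, the caudal epiblast list to 923 ± 128 and 2699 ± 87.4, and the paraxial mesoderm list to 198 ± 32.0 and 56.8 ± 12.4. What depth and mixed markers contribute was not tested.

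Ttll3 was at 42.2, 38.2 and 24.5 CPM with cycling genes and at 228, 260.3 and 185 without, with no overlap (-2.59, SE 0.23, adjusted p = 1.93e-08). Ttll6 was at 10.7, 9.69 and 4.59 against 48.8, 104 and 64.3 (-2.95, SE 0.42, adjusted p = 1.43e-05), and Ttll9 at 8.61, 8.48 and 8.26 against 65.0, 60.7 and 48.2 (-2.68, SE 0.36). Per cell, the Ttll3 UMIs were 1.75, 1.05 and 0.860 with cycling genes and 3.11, 1.67 and 1.53 without. Ttll6 and Ttll9 likewise had fewer UMIs per cell with cycling genes in every embryo. In CPM, Ttll7 (-1.77), Agbl2 (-1.65) and Ttll1 (-1.52) were also lower with cycling genes, but per cell Ttll7 and Agbl2 had more UMIs with cycling genes in 2 embryos. Ttll7 was lost without replicate 1 (adjusted p = 0.0815), Agbl2 without replicate 2 (0.315) or 3 (0.119), and Ttll1 without replicate 2 (0.227) or 3 (0.360).

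Tuba1a was at 518, 423 and 299 CPM with cycling genes and 1435, 1067 and 1053 without (-1.43, SE 0.18, adjusted p = 1.77e-06). Tuba1b went the other way, at 619.6, 455 and 393 against 215, 338 and 209 (1.10, SE 0.20, adjusted p = 2.00e-04). Neither gene's groups overlapped. Per cell, however, the Tuba1a UMIs were 21.4, 11.6 and 10.5 with cycling genes and 19.6, 6.83 and 8.73 without, the reverse of the CPM order. As shares of alpha-tubulin UMIs, Tuba1a took 43.8%, 46.1% and 41.1% with cycling genes and 86.5%, 75.5% and 83.4% without. Tuba1c had 218 UMIs with cycling genes and 1 without, a ratio of 14.4 (counting interval 2.56 to 571).

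Of the beta isotypes, Tubb5 was at 1791, 1881 and 1605 with cycling genes and at 707, 894 and 972 without (1.16, SE 0.16, adjusted p = 6.38e-06). Tubb4b was at 479, 546 and 506 against 739.7, 642 and 940.1 (-0.49, SE 0.16, adjusted p = 0.0215). Their shares of beta-tubulin UMIs were 72.1% ± 0.301 and 21% ± 1.65 with cycling genes and 47.2% ± 5.73 and 42.4% ± 4.82 without. Tubb6 was higher with cycling genes by 1.87 (SE 0.51), and Tubb3, with 105 UMIs against 0, was at least 2.31-fold higher. The Tubb4b call was lost without any single replicate (adjusted p = 0.146, 0.0701 and 0.161 without replicates 1, 2 and 3), Tubb6 without replicate 1 (0.0568) or 2 (0.051), and Tubb3 without replicate 1 (0.0687). Tubb2b was called lower with the embryo as a block alone (-0.64, adjusted p = 0.0101), while per cell it had more UMIs with cycling genes in every embryo.

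Among the 83 cells, 7 members could be tested. Only 7 cells of replicate 1 had cycling genes, so its sum with cycling genes was left out. Its sum without cycling genes stayed in, so replicate 1 entered on that side alone. Over the 83 cells, Tuba1a was at 1380, 787 and 628 CPM in replicates 1, 2 and 3. Tubb5 was at 730, 1458 and 1294, and Ttll3 at 240, 139 and 102. What the uneven place of replicate 1 adds to the changes that follow was not tested. Ttll3 (-1.37, adjusted p = 0.00259), Tuba1a (-1.19, adjusted p = 0.00157) and Tubb5 (0.88, adjusted p = 0.00624) passed, where 9.18% of all genes were higher and 10.0% lower with cycling genes. Ttll6 (-1.78, adjusted p = 0.0883), Tuba1b (0.59, adjusted p = 0.136), Tubb4b (-0.29, adjusted p = 0.416) and Tubb2b (-0.44, adjusted p = 0.486) did not.

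**Figure D5:**
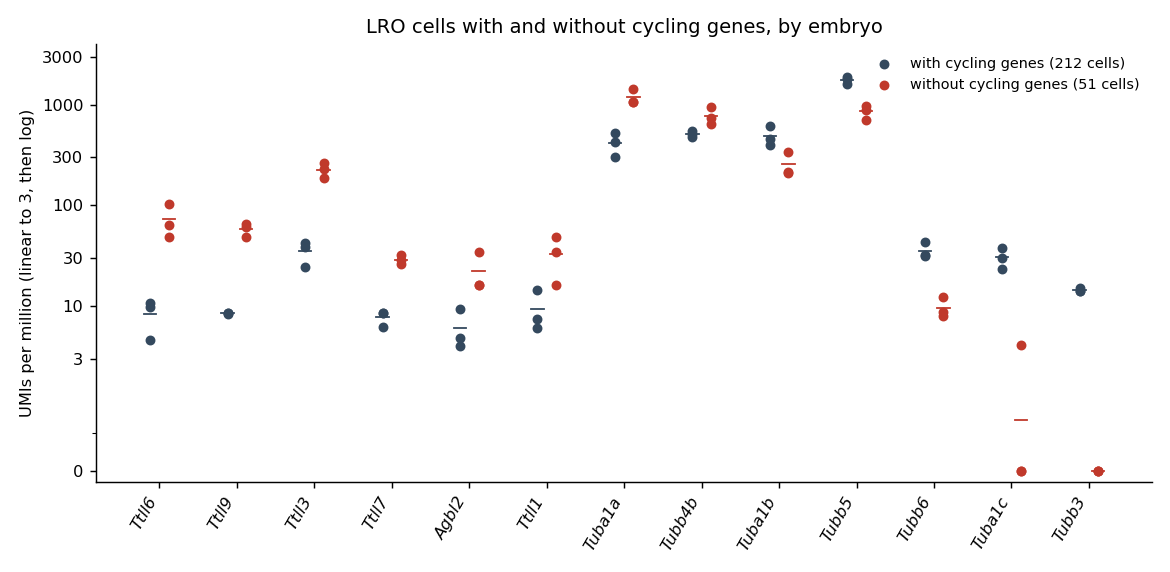
CPM of the 13 called members in LRO cells with and without cycling genes, on an axis that is linear up to 3 and logarithmic above. Points are embryos and short lines are means. Tuba1a lies at 299 to 518 with and at 1053 to 1435 without cycling genes.

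The LRO holds crown cells, which express Nodal and its antagonist Dand5, and pit cells, which carry the motile cilia. LRO cells with a UMI of either gene were compared with cells with neither. None of the 21 members tested was called, against 0.0887% of 9023 genes. None had an unadjusted p under 0.05 (smallest 0.163), where 266 of the 9023 genes did. None of the 6 members that could be tested with the 83 cells was called either, and DESeq2 called 13 genes in all. Ttll3 was at 56.0, 52.0 and 30.8 CPM in cells with Nodal or Dand5 and 67.4, 53.6 and 29.9 in the others. Tuba1a was at 639, 460.5 and 339 against 508, 471 and 313 (0.13, SE 0.20). A UMI of either gene depends on depth, so cells with neither may still express them.

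Outside the LRO, neural plate, cardiac and extraembryonic endoderm cells were each set against all other cells outside the LRO, and no other lineage was tested in this way. The counts of members called lay near the shares of all genes, so only single members are described. In neural plate 2 of 27 tested members were higher and 3 lower, against 11.4% and 17.6% of all genes (29.0% in either direction). Tubb3 was at 43.1, 43.4 and 35.8 CPM against 13.8, 11.3 and 11.6 (1.78, SE 0.11, adjusted p = 1.48e-04), and Tubb4a at 32.6, 21.2 and 25.3 against 15, 7.59 and 10.6 (1.31, SE 0.24, adjusted p = 0.00571). Neither overlapped, although Tubb4a was lost without replicate 3 (adjusted p = 0.0702). Tuba4a, Tubb2a and Tubb6 were lower by log2 changes of -0.94, -0.46 and -0.31. Tuba4a was lost without replicate 2 (0.107) or 3 (0.132). Without replicates 1, 2 and 3 the adjusted p was 0.0936, 0.108 and 0.121 for Tubb2a and 0.0856, 0.124 and 0.113 for Tubb6. With the embryo as a block 8 were higher and 4 lower, where 3450 and 3984 of 15788 genes were. Those added as higher were Tuba1a (0.56, adjusted p = 1.00e-04), Tubb5 (0.24, 4.88e-04), Tuba1b (0.14, 0.00618), Tubg1 (0.20, 0.00732), Ttll4 (0.25, 0.00882) and Ttll1 (0.29, 0.0361), and Ttll12 was added as lower (-0.27, 0.00688).

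In cardiac cells 2 of 25 tested members were higher and 2 lower, against 6.24% and 7.84% of all genes. Tubb2a was at 19.9, 14.8 and 19.9 CPM against 8.73, 8.88 and 7.34, without overlap (1.19, SE 0.15, adjusted p = 0.0013). Tubg1 was higher by 0.39, and was lost without replicate 2 (adjusted p = 0.134) or 3 (0.170). Tuba4a was lower, at 3.39, 4.25 and 3.58 against 14.2, 25.0 and 18.4 (-2.31, SE 0.29), as was Tubb3 by -0.82, lost without replicates 1, 2 and 3 in turn (0.0838, 0.0575 and 0.0555). With the embryo as a block 6 were higher and 7 lower, where 1799 and 2176 of 15521 genes were. Those added as higher were Tuba1b (0.27, adjusted p = 1.07e-05), Tubb5 (0.21, 2.50e-05), Tuba1a (0.32, 3.43e-04) and Ttll3 (0.91, 0.0361), and those added as lower were Tubb4a (-0.89, 0.00244), Ttll4 (-0.36, 0.0216), Ttll1 (-0.52, 0.0477), Tuba1c (-0.24, 0.0499) and Ttll9 (0.0492), which had 0 UMIs in cardiac cells and was at least 1.80-fold lower there with the floor of 3 UMIs over the group.

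In extraembryonic endoderm 8 of 27 tested members were higher and 12 lower, where 33.7% and 37.6% of all genes were. Tuba4a was at 69.8, 89.3 and 79.6 CPM against 11.2, 12.1 and 10.6 (3.04, SE 0.11, adjusted p = 4.21e-08), and Tuba1c at 108, 75.9 and 74.9 against 48.8, 34.2 and 32.8 (1.37, SE 0.17). Tuba1a was at 30.7, 28.0 and 25.6 against 276, 194 and 188 (-2.75, SE 0.15, adjusted p = 3.00e-07). None of these overlapped. Ttll10 (3.75), Tuba3a (2.49), Ttll1 (1.15), Ttll12 (0.73), Ttll3 (0.69) and Tubb4b (0.52) were also higher. Tubb2b, Tubb3, Tubb4a, Ttll9, Tubb6, Tubb2a, Ttll7, Tubg1, Tubb5, Tuba1b and Ttll5 were lower, by log2 changes from -2.62 to -0.45. Ttll3 overlapped and was lost without replicate 1 (adjusted p = 0.0681) or 3 (0.276), and Ttll5 without replicate 3 (0.0822).

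Other lineages led for single isotypes. Tubb6 was highest in endothelium (70.4 ± 12.7 CPM), followed by mesenchyme (61.5 ± 7.02), which it overlapped. Tubb4b was highest in erythroid cells (850.3 ± 39.6, n = 2) and did not overlap extraembryonic endoderm (642 ± 41.5). Tubb2b was highest in presomitic mesoderm (136 ± 22.5), overlapping germ cells, and Tubb3 in neural plate (40.8 ± 4.33), above presomitic mesoderm (31.1 ± 5.64).

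Beyond the members, 55 genes that act on tubulin were listed, of which 54 were among the features and 53 were tested in LRO cells against all others. In all, 6 were higher and 1 lower, against 11.2% and 6.48% of all genes. The median log2 fold change was 0.01, beside -0.05 over all genes. Tppp3, which promotes tubulin polymerization, was at 215, 165 and 94.0 CPM in LRO cells against 1.61, 1.07 and 0.938 (6.93, SE 0.32, adjusted p = 2.33e-07). Lrrc49, a subunit of the polyglutamylase complex of Ttll1, was at 25.3, 24.3 and 15.3 against 8.46, 6.57 and 5.79 (1.54, SE 0.21, adjusted p = 6.35e-04), while Ttll1 itself was not called. Mapre3, a plus-end binding protein, was higher by 1.89, the katanin-like Katnal2 and Katnal1 by 1.53 and 1.22, and the kinesin cofactor Map7 by 1.16. The 1 gene that was lower was Cct3, a subunit of the tubulin-folding chaperonin (-0.39, adjusted p = 0.0112). Map7 (highest adjusted p 0.0812), Katnal1 (0.0613) and Cct3 (0.137) did not pass in every alternative. None of the 8 gamma-tubulin ring genes and none of the 4 tyrosination cycle genes tested was called. With the embryo as a block 10 of the 53 were higher and 10 lower, against 14.7% and 15.7% of all genes. All 7 chaperonin subunits tested were then lower, Cct8 (-0.37, adjusted p = 7.25e-06) and Cct4 (-0.32, adjusted p = 1.19e-04) among them, as was the gamma-tubulin ring gene Tubgcp3 (-0.42, adjusted p = 0.0453). Tpgs1, another subunit of the Ttll1 complex (0.33, adjusted p = 0.0218), and Atat1, the alpha-tubulin acetyltransferase (0.39, adjusted p = 0.018), were then higher.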

How the data were processed

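Single cells of 3 WT embryos were profiled by droplet RNA-seq. The deposited matrices hold raw UMI counts per gene and barcode, which the authors made with Cell Ranger (3.1.0, per the submitters' processing notes) on mm10 with EGFP added. Kept cells had at least 1500 genes, at most 8500 (7500 in replicate 2), and 0.5% to 10% mitochondrial UMIs. Lineages needed a UMI of at least 4 of 6 markers, with the LRO first, and ties were left unassigned. Doublets were scored with Scrublet in scanpy (1.11.5, Python 3.11.15), which called 1 cell per embryo and so was used only as an alternative that drops the highest 6% of scores.

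Counts were summed per embryo and class of at least 10 cells and tested across all genes with edgeR (4.0.16, R 4.3.3; TMM, filterByExpr, quasi-likelihood test, Benjamini-Hochberg adjustment, threshold 0.05). Alternatives included DESeq2 (1.42.0), other gates, thinning to 5000 UMIs and leaving out each embryo. Both sides of a comparison come from the same embryos, so sums with the same number are paired by animal. The correlation of their deviations was 0.0447 to 0.0654 for LRO cells against axial mesoderm, 0.0927 to 0.132 for the cycling split and 0.100 to 0.492 in the other 6 comparisons. The block was run as an alternative because the main fit was written without it. A single-gene exact permutation test of 3 against 3 sums cannot go below 0.10 even when the pairing is ignored, so only the fits across genes are given. On simulated counts, the fit of LRO cells against all others recovered 95.5% of 200 changed genes of 15580 tested, and 9.48% of its calls were false. The changed genes all had the same absolute fold change and were drawn above a floor on expected counts. The simulated sums were independent, not paired by embryo. The share recovered therefore does not cover members with few UMIs or smaller changes.

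The members, markers and gene lists were chosen with earlier results of these data known. The members named are all that entered the first test or passed in any, with UMI totals for the rest, and the listed tubulin-acting genes past the threshold with an absolute log2 fold change of at least 1, at most 6 each way; Cct3, Cct4, Cct8, Tubgcp3, Tpgs1 and Atat1 fall outside this rule and were named after their values were seen. Intervals and floors (3 UMIs) cover counting error only, at 95%. Promoter sequences are from RefSeq and gene positions from GENCODE M21, both on GRCm38.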

Additional observations from a re-analysis of the deposited data

How the results depend on the processing

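Of 73 member fold changes called in the 8 comparisons, 918 values under alternatives were computed: 827 kept their direction and call, 91 kept direction only, and none reversed. The most calls were lost on leaving out an embryo, 14 without replicate 1, 21 without replicate 2 and 17 without replicate 3. Thinning to 5000 UMIs lost 11 calls, no filter on low counts 6, DESeq2 5, the LRO gate of 5 genes 4 and of 3 genes 2. DESeq2 moved the median log2 fold change of all genes to 0.22 for LRO cells against all others, 0.16 against neural plate and -0.29 for the cycling split. The members tested and the calls over all genes also differ between settings and are given beside the counts. The number of genes tested differs between settings too, so a count of genes given below without a percent is not a share. For LRO cells against all others, members lower numbered 5 of 31 with the replicate block (pairing by embryo) and 5 of 31 without mixed-marker cells. Of all genes, 15.7% and 10.3% were. Against axial mesoderm, members higher numbered 6 of 35 with no filter and 4 of 18 with the replicate block. They numbered 4 of 9 without mixed-marker cells and 1 of 17 without the highest doublet scores. Of all genes, 754, 551, 613 and 415 were higher in these settings. The 551 were of 8424 genes tested and the 613 of 5230. Members lower numbered 1 of 7 after thinning, 1 of 35 with no filter, 1 of 18 with the block and 2 of 9 without mixed-marker cells. Of all genes, 110, 295, 336 and 190 were lower. Against neural plate, 7 of 22 were higher after thinning, where 1492 of all genes were. Members lower numbered 5 of 27 with the gate of 5 genes and 6 of 36 with no filter. They numbered 6 of 27 with the block and 5 of 25 without mixed-marker cells. Of all genes, 1623, 2401, 2515 and 1784 were lower in these settings. For the cycling split, 2 of 7 were higher after thinning and 1 of 7 without mixed-marker cells, where 356 and 286 of all genes were. Members lower numbered 3 of 7 after thinning, 5 of 22 with the cycling gate set after thinning and 2 of 7 without mixed-marker cells. Of all genes, 464, 773 and 312 were lower in these settings. In neural plate, 4 of 37 were higher with DESeq2 and 8 of 27 with the block, where 2015 and 3450 of all genes were. After thinning 1 of 22 was lower, where 2080 of all genes were. In cardiac cells, 1 of 22 was higher after thinning and 6 of 25 with the block, where 641 and 1799 of all genes were. Members lower numbered 1 of 22 after thinning, 7 of 25 with the block and 4 of 25 without the highest doublet scores. Of all genes, 668, 2176 and 1455 were lower in these settings. In extraembryonic endoderm 5 of 22 were higher after thinning, where 4264 of all genes were. Thinned shares of LRO cells with a UMI were 90.5% for Tuba1a, 26.2% for Ttll3, 9.92% for Ttll6 and 7.54% for Ttll9. The causes of these shifts were not tested, apart from fewer UMIs in thinned cells.

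The replicate block changed no member call beyond those given in the report. Leaving out 1 embryo gave 9 to 12 members higher and 0 to 2 lower for LRO cells against all others, 1 to 5 and 0 to 1 against axial mesoderm, 8 to 9 and 1 to 3 against neural plate, 3 to 5 and 5 to 6 for the cycling split, 0 and 0 for Nodal or Dand5, 1 to 3 and 0 to 2 in neural plate, 1 to 4 and 1 to 1 in cardiac cells, and 7 to 9 and 12 to 12 in extraembryonic endoderm. Of all genes, 1032 to 1349 were then higher and 131 to 729 lower for LRO cells against all others. These ranges were 232 to 476 and 90 to 217 against axial mesoderm, and 1631 to 2068 and 574 to 1228 against neural plate. The cycling split gave 626 to 1029 and 788 to 1092, and the Nodal or Dand5 split gave 3 to 7 and 0 to 1. Neural plate gave 533 to 1540 and 1087 to 2494, and cardiac cells 427 to 706 and 324 to 870. Extraembryonic endoderm gave 4320 to 5294 and 4661 to 5554. The genes tested in each of these fits are not given, so these counts are not shares to set beside the members. Members with few UMIs, such as Agbl4, Ttll10 and Ttll11, are limited by depth, and with 3 embryos the p-values measure only the spread between these libraries.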
